A study of Homo sapiens with 15 samples.

Results

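The metallothioneins and the genes that govern their metal supply were followed in IGROV-CP20 cells, an ovarian cancer line that is resistant to cisplatin. The 8 genes were chosen by name, for their known part in binding or moving zinc and platinum, by a rule that uses no measured value but was set with earlier results of these data known. They are the metallothionein genes MT1E, MT1F, MT1G, MT1M, MT1X and MT2A, the transcription factor gene MTF1 and the zinc exporter gene SLC30A1, out of 47634 gene identifiers counted in each library. Only MT1F, MT2A, MTF1 and SLC30A1 had enough reads to be among the 11113 genes tested, and the other 4 are given by their counts. The study asked how 3 approved drugs alter the response of resistant cells to cisplatin. Its 15 libraries comprised 3 biological replicates of each of 5 conditions. The first was untreated cells, and the second was exposure to cisplatin at 50 µM over 24 h. In the other conditions, 10 µM Tranilast, Telmisartan or Amphotericin B was added 24 h ahead of that same cisplatin exposure. All conditions used the same single cell line, and each drug was measured together with cisplatin, so that the action of a drug by itself and its action on the cisplatin response cannot be told apart.

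Metallothioneins are small proteins rich in cysteine whose thiol groups hold zinc and copper and can also bind platinum, which takes the drug out of circulation in the cytosol. Their transcription is switched on by MTF1, a zinc finger protein that senses free zinc and binds metal response elements in promoters. SLC30A1, which carries zinc out across the plasma membrane, is another target of MTF1, so that storage and export of zinc are governed by the same factor.

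The 6 metallothionein genes lie in one cluster on chromosome 16 (GENCODE 29 positions on GRCh38), which spans 76.0 kb from 56608199 to 56684196 and begins with MT2A and ends with MT1X. MTF1 and SLC30A1 lie on the minus strand of chromosome 1, at 37809567-37859620 and 211571568-211578742. The promoters of 4 members were given by RefSeq on GRCh38.p14, and they are shown since MTF1 acts through the metal response element core, which was searched in them. Each is the stretch of 250 bases that ends just before the RefSeq start of the gene, 5′ to 3′ on the strand of the gene. These starts are not those of GENCODE 29. The MT2A window lies wholly inside the GENCODE gene, while the SLC30A1 window ends upstream of the GENCODE start. The capitals mark the core, searched as TGCACNC or TGCGCNC on both strands. Overlapping matches were allowed in the search, but none of the marked ones overlapped. MT2A is at chr16:56608334-56608583 on the plus strand, MT1X at chr16:56682220-56682469 on the plus strand, SLC30A1 at chr1:211579162-211579411 on the minus strand and MTF1 at chr1:37859593-37859842 on the minus strand.
MT2A: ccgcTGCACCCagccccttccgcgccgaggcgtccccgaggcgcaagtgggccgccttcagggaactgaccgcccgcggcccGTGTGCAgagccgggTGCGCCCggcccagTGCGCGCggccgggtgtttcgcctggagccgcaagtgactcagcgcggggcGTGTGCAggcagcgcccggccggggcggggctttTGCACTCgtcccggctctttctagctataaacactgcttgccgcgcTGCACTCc
MT1X: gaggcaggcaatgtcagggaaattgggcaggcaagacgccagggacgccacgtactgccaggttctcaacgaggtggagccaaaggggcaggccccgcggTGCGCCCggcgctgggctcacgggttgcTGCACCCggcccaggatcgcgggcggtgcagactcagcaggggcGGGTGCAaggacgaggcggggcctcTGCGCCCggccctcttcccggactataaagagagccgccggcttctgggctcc
SLC30A1: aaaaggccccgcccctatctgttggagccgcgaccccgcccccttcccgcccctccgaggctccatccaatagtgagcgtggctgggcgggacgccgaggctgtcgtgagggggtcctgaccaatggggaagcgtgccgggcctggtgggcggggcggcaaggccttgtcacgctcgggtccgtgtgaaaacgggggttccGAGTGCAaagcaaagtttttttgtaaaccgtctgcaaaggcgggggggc
MTF1: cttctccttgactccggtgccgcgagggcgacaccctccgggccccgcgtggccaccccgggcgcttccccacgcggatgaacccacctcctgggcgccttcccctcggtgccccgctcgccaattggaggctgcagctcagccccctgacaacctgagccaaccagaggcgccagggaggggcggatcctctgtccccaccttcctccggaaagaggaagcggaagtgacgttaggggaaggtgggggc

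The MT2A window held 7 matches, the MT1X window held 4, the SLC30A1 window held 1 and the MTF1 window held 0. Among 35116 promoter windows of that length, 24.8% held at least 1 match, 0.37% at least 4 and 0.0313% at least 7. In MT2A the outermost matches began at -246 and ended at -2 relative to the RefSeq start, and the match in SLC30A1 lay at -49 to -43. The core of the antioxidant response element, TGACNNNGC on either strand, had 1 match in MT2A, 1 in MT1X, 1 in SLC30A1 and 0 in MTF1, against at least 1 in 10.9% of all windows. A match is a description of the letters and does not show that the factor was bound in these cells.

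Reads were taken from the 3′ end of polyadenylated transcripts, and total counts per library lay between 1510620 and 3517041, with the Amphotericin B libraries the shallowest. The share of counts on the mitochondrial ribosomal RNAs differed between conditions and is a property of the libraries that moved with several results below. Untreated libraries had 1.79, 2.20 and 2.11%, cisplatin libraries 13.7, 5.61 and 3.41%, Tranilast libraries 2.53, 2.10 and 2.17%, Telmisartan libraries 10.8, 12.9 and 3.61%, and Amphotericin B libraries 13.6, 12.3 and 14.8%. Replicate 1 of cisplatin and replicate 3 of Telmisartan stood apart from the other libraries of their conditions over all genes, so member results that change their call without either library are also given without it, and for the further lists the calls that change without cisplatin replicate 1 are given in the comparisons described. Of 8 epithelial and ovarian carcinoma markers, KRT8, KRT18 and EPCAM were read in every library, and the sum of the list was 145 to 151 CPM (counts scaled to a common library size with TMM factors) in untreated cells, 164 to 197 with cisplatin, 141 to 166 with Tranilast, 144 to 213 with Telmisartan and 184 to 243 with Amphotericin B. Most of that sum was KRT18, which rose with cisplatin from 89.1 ± 4.46 to 139 ± 13.9 CPM (SD, n = 3; log2 fold change 0.64, adjusted p = 0.0135 by edgeR). EPCAM, the epithelial surface marker, fell from 41.6 ± 1.8 to 21.7 ± 2.07 CPM (-0.94, adjusted p = 0.00172). KRT7, PAX8, MUC16 and WT1 had 1, 1, 4 and 3 reads over all libraries, so the labelled ovarian origin was not borne out by PAX8, MUC16 or WT1 at this depth. Of 7 markers of other cell types, CD3E and CDH5 were at 0 in all libraries, while PTPRC, the leukocyte phosphatase CD45, had 220 to 296 counts in untreated libraries and 5 to 98 in the treated ones. ALB, the albumin of liver cells, had 1 to 19 counts per library, with the most in a Telmisartan library, at 9.7 CPM. It was higher with Amphotericin B than in untreated cells, at 7.06 ± 3.02 against 1.17 ± 0.859 CPM (SD, n = 3). The log2 fold change was 2.49 (adjusted p = 0.0299 by edgeR), in a comparison where 40.9% of all genes were called. This rested on 5 to 12 counts per library with Amphotericin B and 1 to 8 in untreated cells. The sum of that list was 65.6 to 77.9 CPM in untreated cells, 4.42 to 23.5 with cisplatin, 8.93 to 24.8 with Tranilast, 7.18 to 18.4 with Telmisartan and 16.4 to 26.5 with Amphotericin B, and its part in the results was not tested. In bulk RNA, fewer cells that express a gene and less of its RNA per cell cannot be told apart.

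Few members changed. Of 40 tests, which are 4 members in 10 comparisons, 4 passed an adjusted p of 0.05 in edgeR's quasi-likelihood test, and each concerned MT2A or SLC30A1. SLC30A1 rose with cisplatin, which was 1 of 4 members called where 44.7% of all genes were called. It fell in Tranilast plus cisplatin relative to cisplatin, as 1 of 4 members beside 22.2% of all genes. MT2A was higher in Amphotericin B plus cisplatin than in untreated cells, as 1 of 4 members beside 40.9% of all genes, and lower with Tranilast than with Amphotericin B, as 1 of 4 members beside 36% of all genes. These shares of members were at or below the background of genes called, apart from the Tranilast comparison with cisplatin, where the count was 1. No member was called for Amphotericin B against cisplatin, where 13.2% of genes were, nor for Tranilast against untreated cells (8.1%), Telmisartan against untreated cells (28.7%) or Tranilast against Telmisartan (2.34%). Telmisartan differed from cisplatin and from Amphotericin B in 0% of genes by this test, with 10.3% and 20.5% of genes at an unadjusted p under 0.05. DESeq2 called 13 genes higher and 42 lower for Telmisartan against cisplatin, and 120 higher and 64 lower for Telmisartan against Amphotericin B, none of them members. The 0% also depended on cisplatin replicate 1. Without it, edgeR's test called 301 genes higher and 244 lower for Telmisartan against cisplatin. For Telmisartan against Amphotericin B it then called 473 higher and 192 lower. No member was among them.

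**Figure D1:**
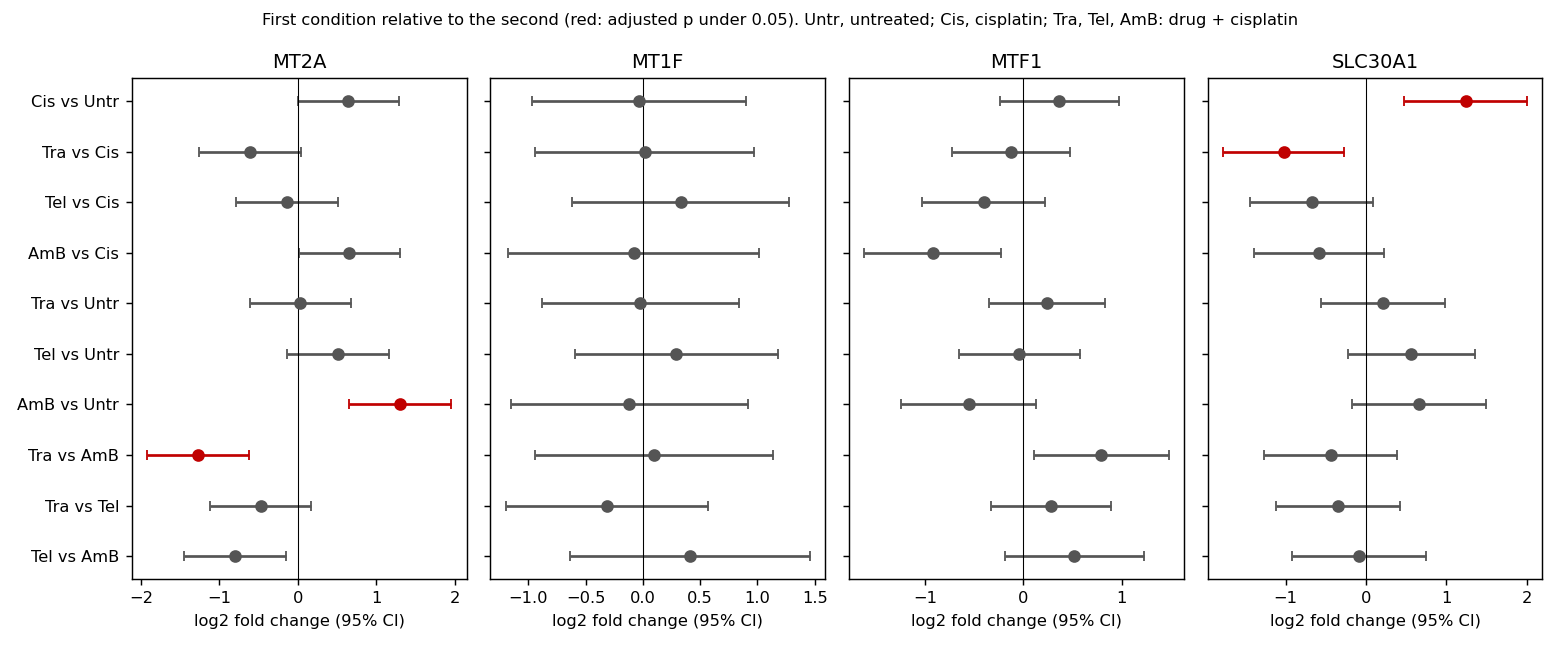
Log2 fold changes of the 4 tested members (x axes, with 95% intervals) in the 10 comparisons (rows), with calls at an adjusted p under 0.05 in red. The red points are SLC30A1 for cisplatin against untreated cells (1.24) and Tranilast against cisplatin (-1.03), and MT2A for Amphotericin B against untreated cells (1.31) and Tranilast against Amphotericin B (-1.27).

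MT2A, the major metallothionein of most human tissues, carried nearly all metallothionein reads in these cells. It had 2055 counts over the 15 libraries, which was 83.2% of the counts of 13 metallothionein genes, against 6.19% for MT1F, 3.68% for MT1X, 2.55% for MT1E and 1.74% for MT1G. These are shares of reads from transcript ends and were not divided by transcript length. By mean CPM, MT2A was in place 2807 of the 11113 genes. Its share of the counts of the 6 member metallothioneins was 85.1% ± 0.833 (SD, n = 3) in untreated cells, 83.5% ± 5.92 with cisplatin, 85.4% ± 1.21 with Tranilast, 84.4% ± 8.49 with Telmisartan and 87.8% ± 3.21 with Amphotericin B. The share thus differed between conditions by less than the spread within the cisplatin and Telmisartan libraries.

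The MT1 genes were at the limit of what this depth can measure. MT1F, the best read of them, had 13, 11 and 16 counts in untreated cells, 5, 4 and 15 with cisplatin and 11, 14 and 15 with Tranilast. Telmisartan gave 7, 9 and 19, and Amphotericin B gave 5, 2 and 7. All groups overlapped, and scaled by library its mean was 3.79 ± 0.546, 3.57 ± 2.11, 3.76 ± 0.357, 4.59 ± 0.892 and 3.46 ± 1.81 CPM (SD, n = 3) in that order. Its log2 fold changes lay between -0.31 and 0.41 with standard errors of 0.41 to 0.521, and the smallest adjusted p by edgeR was 0.632. MT1X had 8, 7 and 2 counts in untreated cells, 8, 7 and 8 with cisplatin and 6, 4 and 3 with Tranilast. Telmisartan gave 3, 11 and 8, and Amphotericin B gave 2, 3 and 11. MT1X shares its strand with the overlapping gene AC026461.1, which holds 33.7% of the words of 75 bases in the last 400 bases of the MT1X transcript, so reads there can be assigned to neither gene with certainty.

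MT1E, the gene next to MT2A among the members, had 2, 3 and 4 counts in untreated cells, 4, 11 and 4 with cisplatin and 1, 7 and 4 with Tranilast. Telmisartan gave 0, 2 and 9, and Amphotericin B gave 3, 8 and 1. MT1G had 3, 1 and 4 counts in untreated cells, 2, 4 and 0 with cisplatin and 4, 6 and 1 with Tranilast. Telmisartan gave 1, 2 and 2, and Amphotericin B gave 3, 5 and 5. MT1M was read once in untreated replicate 1 and once in Amphotericin B replicate 2, and at 0 in the other libraries. A count of 0 allows 3 counts, which is between 8.53e-05% and 0.000199% of a library and covers counting error only. Without a filter on low counts, 40 tests of MT1E, MT1G, MT1M and MT1X gave 0 calls by edgeR and 6 with an unadjusted p under 0.05. The smallest adjusted p among them was 0.0985, for MT1E with cisplatin against untreated cells, at a log2 fold change of 1.73. Of the metallothioneins outside the members, MT1A had 37 counts in all, MT3 had 19, MT1L 5, MT1H 2 and MT1B 1, while MT4 and MT1HL1 were at 0.

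**Figure D2:**
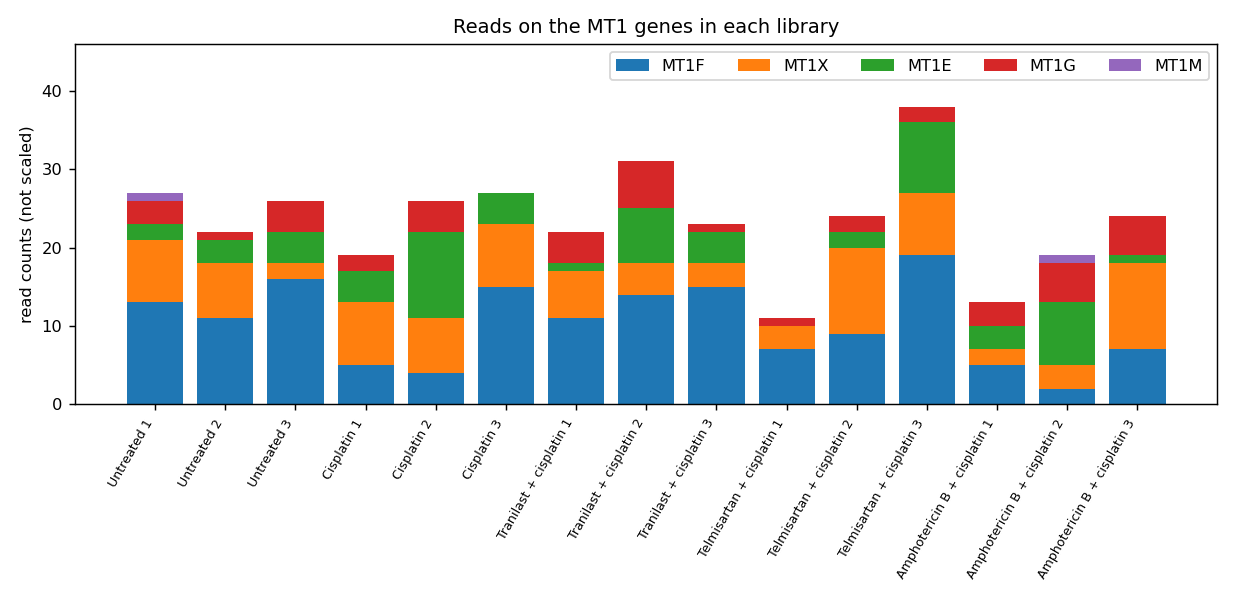
Read counts (y axis, not scaled) on MT1F, MT1X, MT1E, MT1G and MT1M stacked for each of the 15 libraries (x axis, condition and replicate). The 5 genes together had between 11 and 38 reads per library, and MT1M appears with 1 read in 2 libraries.

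MT2A was highest after Amphotericin B plus cisplatin, at about 2.47-fold of the untreated level. Its levels were 45.9, 38.3 and 38.7 CPM in untreated cells, 98.6, 53.5 and 41.7 with cisplatin and 45.4, 46.6 and 34.1 with Tranilast. Telmisartan gave 68.4, 76.8 and 32.2, and Amphotericin B gave 86, 123 and 95.4. The Amphotericin B libraries did not overlap those of untreated, Tranilast or Telmisartan cells, and they overlapped cisplatin only through cisplatin replicate 1. Telmisartan replicate 3 was the lowest of all libraries, while replicates 1 and 2 were above every untreated library. The condition means were 101 ± 19.1 CPM (SD, n = 3) with Amphotericin B, 64.6 ± 30 with cisplatin, 59.1 ± 23.7 with Telmisartan, 42 ± 6.91 with Tranilast and 41 ± 4.29 in untreated cells. No neighbouring pair in this order passed the threshold. The adjusted p values in edgeR's test were 0.152, 0.922, 0.374 and 0.971 from the highest pair to the lowest.

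Between Amphotericin B and untreated cells the log2 fold change of MT2A was 1.31 (SE 0.311, adjusted p = 0.00314 by edgeR), while the median of all genes was -0.189. Libraries of these groups also did not overlap for 58.7% of all genes. The raw counts of MT2A were close in both groups. They were 144, 133 and 152 in untreated cells and 121, 153 and 128 with Amphotericin B. The Amphotericin B libraries had lower totals, at 1872639, 1510620 and 1719939 counts against 2691832, 2999125 and 3392054 in untreated cells. Scaled by these totals alone, MT2A was at 64.6, 101.3 and 74.4 CPM with Amphotericin B and 53.5, 44.35 and 44.8 in untreated cells. Scaling by library size alone, which moved the median of all genes to -0.753, gave 0.75 (adjusted p = 0.0216), and over 10 processing alternatives the adjusted p ran from 2.51e-07 to 0.0216. The call also held with each of the 15 libraries left out, at a log2 fold change of 1.14 to 1.40. With the mitochondrial ribosomal share as a covariate, an alternative added after the values had been seen, the estimate was -0.04 (adjusted p = 0.946). The share was 12.3 to 14.8% in the Amphotericin B libraries and 1.79 to 2.20% in the untreated ones, so within this pair the share and the condition cannot be told apart. ALB was also higher and PTPRC and EPCAM were lower in this comparison, at log2 fold changes of 2.49, -2.57 and -1.38, and their part in the MT2A difference was not tested.

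Tranilast plus cisplatin left MT2A at 0.414-fold of the Amphotericin B level, a log2 fold change of -1.27 (SE 0.31, adjusted p = 0.00538 by edgeR). The groups did not overlap, as was so for 55.2% of all genes. Scaling by library size alone, which moved the median of all genes from 0.148 to 0.805, gave -0.62 (adjusted p = 0.0467), the upper end of a range that began at 6.19e-07 over 10 alternatives, and the covariate gave 0.04 (adjusted p = 0.967). Tranilast differed from untreated cells by 0.035 on the log2 scale, with a 95% interval of -0.61 to 0.68. For cisplatin against untreated cells the log2 fold change was 0.65 (SE 0.309, adjusted p = 0.0961) and rested on cisplatin replicate 1, without which it was 0.20 (adjusted p = 0.595). Without cisplatin replicate 3 it was 0.89 (adjusted p = 0.0287), and without Telmisartan replicate 3 it was 0.64 (adjusted p = 0.0381), over a range of 0.0287 to 0.595 with libraries left out in turn.

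Against cisplatin alone, MT2A was 0.66 higher on the log2 scale with Amphotericin B (SE 0.31, adjusted p = 0.152 by edgeR) and 0.61 lower with Tranilast (SE 0.309, adjusted p = 0.158), which did not pass. Without cisplatin replicate 1, the library that reached 98.6 CPM, the Amphotericin B difference was 1.14 (adjusted p = 0.00653) and the Tranilast difference was -0.17 (adjusted p = 0.702). Telmisartan differed from cisplatin by -0.14 (SE 0.31, adjusted p = 0.922), with a 95% interval of -0.79 to 0.51. Against untreated cells it differed by 0.51 (adjusted p = 0.225), and without Telmisartan replicate 3 by 0.82 (adjusted p = 0.0237). Tranilast against Telmisartan gave -0.47 (adjusted p = 0.374), and without that library -0.79 (adjusted p = 0.0418). Telmisartan against Amphotericin B gave -0.80 (adjusted p = 0.172) with groups that did not overlap, as for 22.4% of all genes, and without it -0.48 (adjusted p = 0.612).

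**Figure D3:**
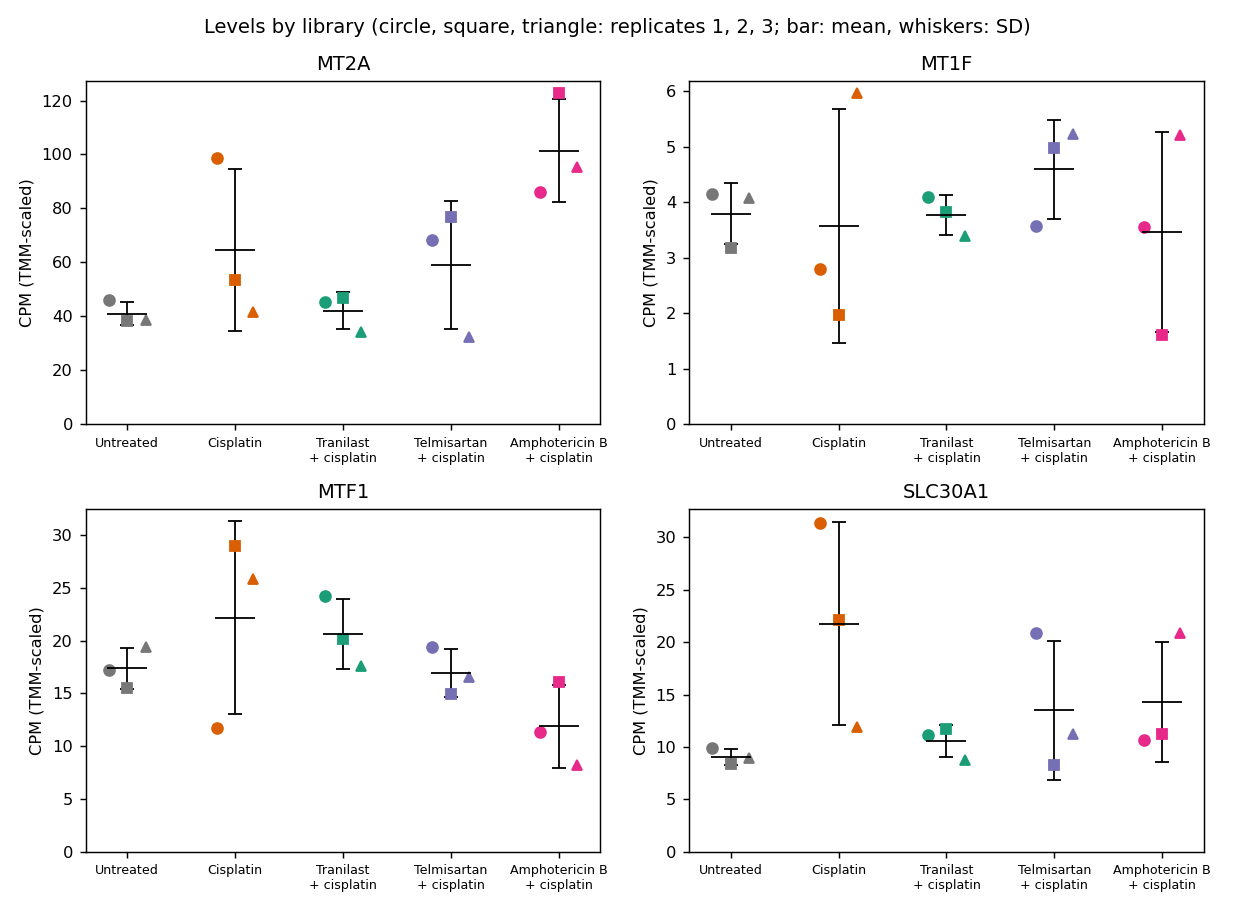
Levels of MT2A, MT1F, MTF1 and SLC30A1 (y axes, CPM scaled by TMM factors) in the 5 conditions (x axes), with each replicate as a point, the mean as a bar and the SD as whiskers (n = 3). MT2A was between 86 and 123 CPM in the Amphotericin B libraries and between 38.3 and 45.9 in the untreated ones, and SLC30A1 was between 11.9 and 31.4 CPM with cisplatin and between 8.34 and 9.88 without treatment.

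SLC30A1, the exporter that lowers cytosolic zinc, was the member that rose with cisplatin. It had 9.88, 8.34 and 8.91 CPM in untreated cells, 31.4, 22.1 and 11.9 with cisplatin and 11.2, 11.7 and 8.80 with Tranilast. Telmisartan gave 20.9, 8.29 and 11.3, and Amphotericin B gave 10.7, 11.2 and 20.9. Every cisplatin library was above every untreated one, as for 53.5% of all genes that did not overlap in either direction, but cisplatin replicate 3 was close to the Tranilast libraries. The means fell from 21.8 ± 9.73 CPM (SD, n = 3) with cisplatin to 14.3 ± 5.74 with Amphotericin B, 13.5 ± 6.6 with Telmisartan, 10.6 ± 1.55 with Tranilast and 9.05 ± 0.778 in untreated cells. Neighbours in that order did not pass the test, at adjusted p values of 0.31, 0.912, 0.604 and 0.802 in edgeR.

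The rise with cisplatin was 2.37-fold, a log2 fold change of 1.24 (SE 0.365, 95% interval 0.48 to 2.01, adjusted p = 0.0107 by edgeR). It passed under 9 of 10 processing alternatives, with adjusted p values of 0.00212 to 0.0734, and the exception was scaling by library size alone, at 0.83, which moved the median of all genes to -0.364. It passed with 14 of the 15 libraries left out in turn, and without cisplatin replicate 1 it was 0.87 (adjusted p = 0.0584). With the mitochondrial ribosomal share as a covariate it was 0.75 (adjusted p = 0.0833). The difference of Amphotericin B from untreated cells was 0.66 (SE 0.398, adjusted p = 0.196) and that of Telmisartan 0.56 (SE 0.375, adjusted p = 0.271). Every Amphotericin B library was also above every untreated one, in a comparison where 58.7% of all genes did not overlap in either direction. For Amphotericin B against untreated cells, 1 of 10 processing alternatives passed, with adjusted p values of 0.0332 to 0.846.

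Tranilast plus cisplatin gave 0.491-fold of the SLC30A1 level of cisplatin alone, a log2 fold change of -1.03 (SE 0.36, adjusted p = 0.0483 by edgeR). The highest Tranilast library, at 11.7 CPM, was just under the lowest cisplatin library, at 11.9, and groups did not overlap for 40.3% of all genes. This call was near the threshold and was lost under 5 of 10 processing alternatives, with adjusted p values of 0.0259 to 0.28. In 4 of these 5 the log2 fold change stayed close, at -0.91 to -1.04, and by library size alone it was -0.52. It was lost with 10 of the 15 libraries left out in turn, which were all untreated and Tranilast libraries, cisplatin replicates 1 and 2 and Amphotericin B replicates 1 and 2. Without cisplatin replicate 1 the value was -0.66 (adjusted p = 0.191), and the share as a covariate gave -0.55 (adjusted p = 0.248). Telmisartan and Amphotericin B differed from cisplatin by -0.68 (SE 0.366, adjusted p = 0.536) and -0.59 (SE 0.386, adjusted p = 0.31), and Tranilast differed from Telmisartan by -0.35 and from Amphotericin B by -0.44, which did not pass either.

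MTF1, the zinc sensor, did not pass in any of the 10 comparisons. Its levels were 17.2, 15.5 and 19.3 CPM in untreated cells, 11.8, 28.9 and 25.8 with cisplatin and 24.2, 20.2 and 17.6 with Tranilast. Telmisartan gave 19.4, 14.9 and 16.5, and Amphotericin B gave 11.4, 16 and 8.2. Cisplatin held both the highest library and one of the lowest, replicate 1, while the Amphotericin B libraries were low as a group. Means ran from 22.2 ± 9.15 CPM (SD, n = 3) with cisplatin through 20.7 ± 3.32 with Tranilast, 17.4 ± 1.91 in untreated cells and 16.9 ± 2.27 with Telmisartan to 11.9 ± 3.94 with Amphotericin B, and the adjusted p values of neighbours by edgeR were 0.784, 0.689, 0.938 and 0.381. The gene AL929472.4 overlaps MTF1 on the other strand, and whether counting used the strand is not given in the sources used here.

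The largest MTF1 differences were those of Amphotericin B. Against cisplatin the log2 fold change was -0.92 (SE 0.331, adjusted p = 0.07 by edgeR), and without cisplatin replicate 1 it was -1.17 (adjusted p = 0.00471). Of 10 processing alternatives, 1 passed, the likelihood ratio test of edgeR, also at -0.92 (adjusted p = 0.037). With the mitochondrial ribosomal share as a covariate the value was -0.49 (adjusted p = 0.464). Tranilast was 0.80 above Amphotericin B (SE 0.325, adjusted p = 0.0633), with libraries that did not overlap, as for 55.2% of all genes, and the call passed under 3 of 10 alternatives, where the adjusted p ran from 0.00757 to 0.111. It also passed without cisplatin replicate 1 (0.76, adjusted p = 0.0259) and without Amphotericin B replicate 2 (1.07, adjusted p = 0.0395). Against untreated cells Amphotericin B gave -0.56 (SE 0.328, adjusted p = 0.183), or -1.11 (adjusted p = 0.0297) when scaled by library size alone, over a range of 0.0297 to 0.317. There the covariate reversed the sign, at 0.17 (adjusted p = 0.84). For cisplatin against untreated cells MTF1 was 0.36 (SE 0.288, adjusted p = 0.318), but 0.63 (adjusted p = 0.0417) without cisplatin replicate 1 and 0.67 (adjusted p = 0.045) with the mitochondrial ribosomal share as a covariate. In that comparison the choice of setting therefore decided whether SLC30A1 or MTF1 was the member called.

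The members followed the mitochondrial ribosomal share to different degrees. Over the 15 libraries, Pearson's r between the share and log2 CPM was 0.923 for MT2A, 0.495 for SLC30A1, -0.171 for MT1F and -0.671 for MTF1. Between members it was 0.48 for MT2A and SLC30A1, -0.557 for MT2A and MTF1 and -0.16 for MTF1 and SLC30A1. These are descriptions, since the points share libraries, scaling factors and conditions. Within cisplatin, replicate 1 had the highest share, at 13.7%, and the highest MT2A and SLC30A1 and the lowest MTF1 of the 3. Within Telmisartan, replicate 3 had the lowest share, at 3.61%, and the lowest MT2A, while SLC30A1 and MTF1 were lowest in replicate 2, which had the highest share, and highest in replicate 1. What moved the share was not tested.

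**Figure D4:**
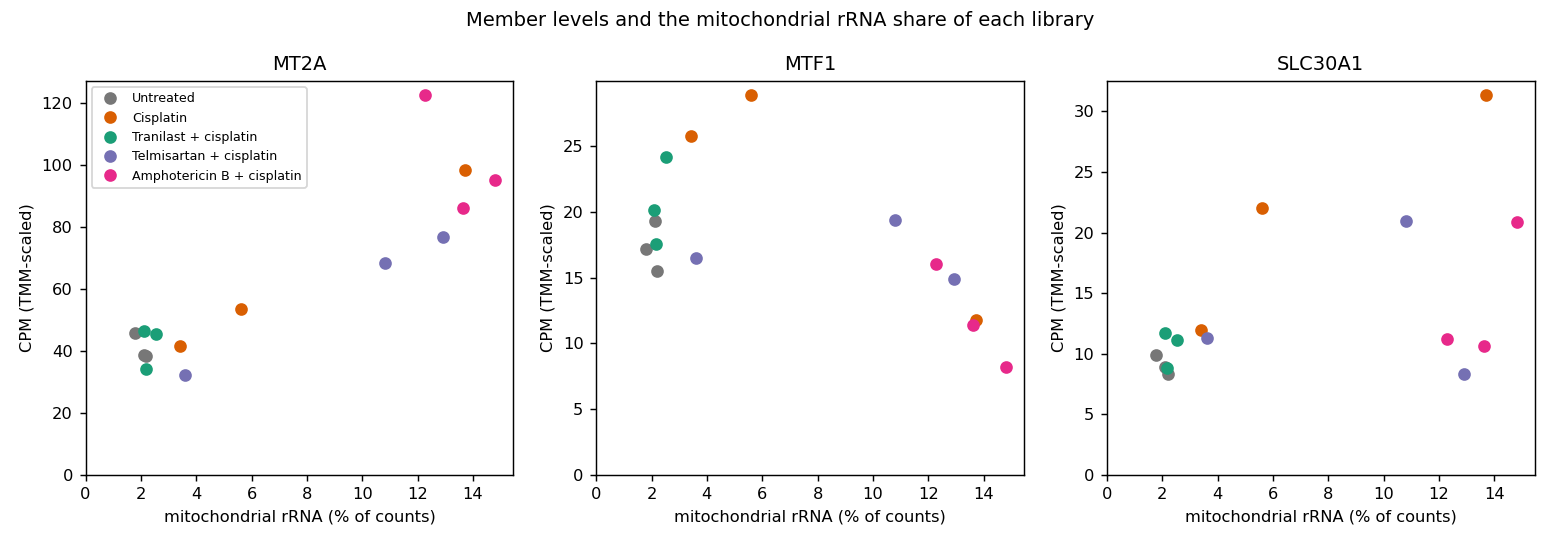
Levels of MT2A, MTF1 and SLC30A1 (y axes, CPM scaled by TMM factors) against the share of counts on mitochondrial ribosomal RNA (x axes, %) in the 15 libraries, coloured by condition. MT2A rises with the share, MTF1 falls, and SLC30A1 is scattered. Pearson's r, taken on log2 CPM and not on the plotted CPM, was 0.923, -0.671 and 0.495 in that order.

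Among 8461 genes whose mean log2 CPM reached 3, those whose log2 CPM was most like MT2A over the 15 libraries were PHPT1 (r = 0.967), CAPNS1 (r = 0.962) and NDUFA3 (r = 0.959). For the summed metallothioneins they were NDUFA3 (r = 0.963), PHPT1 (r = 0.96) and NOP53 (r = 0.955). MTF1 was most like ZNF592 (r = 0.936), GCC1 (r = 0.931) and POLR3D (r = 0.931). SLC30A1 was followed less closely, by OSTC (r = 0.85), ASAH1 (r = 0.848) and DECR2 (r = 0.839), for which Spearman's rho was 0.636, 0.632 and 0.636. Leaving out the cisplatin libraries gave 0.972 for MT2A and PHPT1, 0.924 for MTF1 and ZNF592 and 0.809 for SLC30A1 and OSTC. The other genes named for MT2A then stood at 0.963 and 0.966, those for MTF1 at 0.887 and 0.892, and those for SLC30A1 at 0.707 for ASAH1 and 0.71 for DECR2. All r share the same libraries, scaling and conditions, and r is given as a description.

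The other zinc transporters were called in shares near or below that of all genes with cisplatin. Of 9 SLC30 genes outside the members, 6 were tested, and with cisplatin 0 rose and 2 fell, beside 44.7% of all genes called. SLC30A9 fell from 111 ± 2.06 to 58.9 ± 14.7 CPM (SD, n = 3), a log2 fold change of -0.92 (SE 0.206, adjusted p = 0.00182 by edgeR). SLC30A8, the zinc transporter of insulin granules, fell from 7.3 ± 0.0974 to 2.23 ± 2.02 CPM (-1.70, adjusted p = 0.0124). It had only 23 to 29 counts per library in untreated cells and 0 to 7 with cisplatin. The SLC30 median was -0.632 with cisplatin, where the median of all genes was -0.0146. Among the SLC39 importers, which carry zinc into the cytosol, 11 of 14 were tested, and 2 rose and 3 fell with cisplatin beside the same 44.7%, with a median of 0.0173. SLC39A1 rose from 94.3 ± 12.6 to 297 ± 71.1 CPM (1.66, adjusted p = 1.32e-05), and SLC39A14, which also imports iron, fell from 73.6 ± 5.22 to 22.2 ± 6.7 CPM (-1.71, adjusted p = 0.000122).

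With Tranilast against cisplatin, 0 of 6 SLC30 genes were called, and 1 of 11 SLC39 genes rose and 2 fell, beside 22.2% of all genes. This comparison shares the cisplatin libraries with the one before. SLC39A1 and SLC39A14, which were named for their p against untreated cells, were both among them, at 161 ± 17.6 and 62.7 ± 7.11 CPM with Tranilast (SD, n = 3). The log2 fold changes were -0.88 (adjusted p = 0.00564 by edgeR) for SLC39A1 and 1.48 (adjusted p = 0.00266) for SLC39A14. Amphotericin B against cisplatin called 0 of 6 SLC30 genes and 2 SLC39 genes in each direction, beside 13.2% of all genes, with SLC39A1 at -0.92 (adjusted p = 0.00889) and 157 ± 30.9 CPM. Telmisartan against cisplatin called none of the 6 and none of the 11. Without cisplatin replicate 1, SLC30A8 was also called for Tranilast against cisplatin (1.92, adjusted p = 0.0263 by edgeR), SLC39A7 was no longer called there (-0.75, adjusted p = 0.0791), and SLC39A8 was called lower with cisplatin than in untreated cells (-1.81, adjusted p = 0.000787) and SLC39A6 lower with Amphotericin B than with cisplatin (-0.69, adjusted p = 0.0166). These genes, other than SLC30A8, were picked out after their values were seen.

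**Figure D5:**
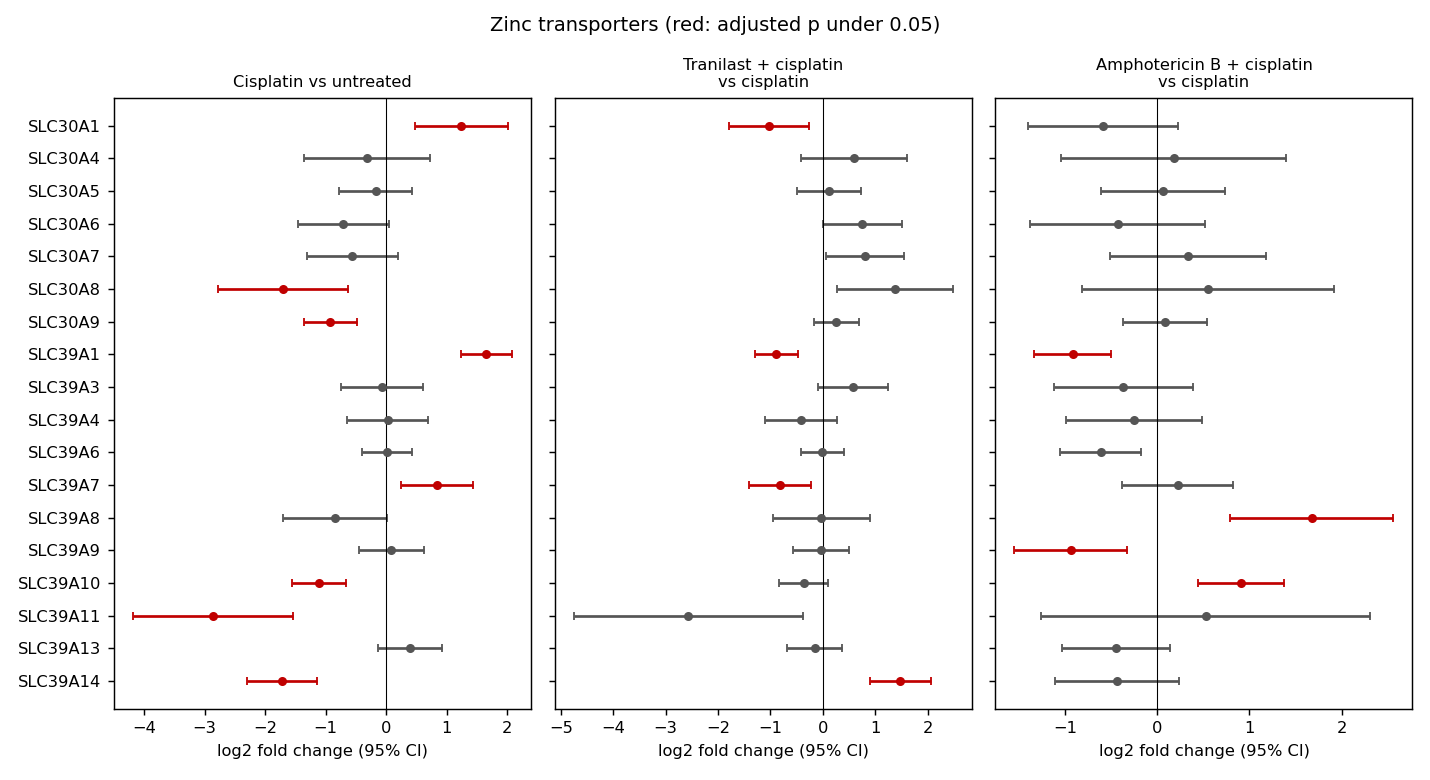
Log2 fold changes with 95% intervals (x axes) of the tested SLC30 and SLC39 zinc transporter genes (rows) in 3 comparisons, with calls at an adjusted p under 0.05 in red. With cisplatin, SLC30A1 (1.24) and SLC39A1 (1.66) were higher and SLC39A14 (-1.71) was lower. For Tranilast against cisplatin, which shares the cisplatin libraries, they stood at -1.03, -0.88 and 1.48.

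Several copper-handling proteins also bind platinum. With cisplatin, 3 of the 9 copper-handling genes tested rose and 1 fell, beside 44.7% of all genes called, and the median was 0.452. ATOX1, the copper chaperone of the copper ATPases, rose from 54.3 ± 10.2 to 166 ± 90.7 CPM (SD, n = 3), a log2 fold change of 1.61 (SE 0.405, adjusted p = 0.00415 by edgeR). SCO2, a mitochondrial copper chaperone, rose from 29.4 ± 0.312 to 103 ± 16.2 CPM (1.81, adjusted p = 1.39e-05). Tranilast against cisplatin called 0 of 9 higher and 5 lower, beside 22.2% of all genes, with ATOX1 at 47.2 ± 13.2 CPM (-1.81, adjusted p = 0.00604) and SCO2 at 46.6 ± 5.87 CPM (-1.15, adjusted p = 0.00277). The list includes ATOX1, COX17 and SOD1, which the study itself reported as lowered by Tranilast in these libraries. The count of 5 is therefore not independent of that report. Amphotericin B against cisplatin called 0 higher and 1 lower, beside 13.2% of all genes, and ATOX1 was at 284 ± 36.2 CPM. The 3 comparisons share cisplatin libraries. Without cisplatin replicate 1, ATOX1 was at 1.08 for cisplatin against untreated cells (adjusted p = 0.0247 by edgeR) and at -1.30 for Tranilast against cisplatin (adjusted p = 0.0193), and it was called higher with Amphotericin B than with cisplatin (1.33, adjusted p = 0.0134). The Tranilast comparison then called 4 of 9 lower, since COX17, picked out after its value was seen, was lost (-0.80, adjusted p = 0.164). Cisplatin replicate 1 had the highest share of mitochondrial ribosomal RNA in its condition, and the part of that share in these differences was not tested.

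Metallothionein promoters also respond to oxidative stress and to glucocorticoids, so targets of both were read alongside. Of 9 targets of NRF2, which drives antioxidant genes, 3 rose and 1 fell with cisplatin, beside 44.7% of all genes, with a median of 0.35. SRXN1 rose from 121 ± 16.1 to 364 ± 72.9 CPM (SD, n = 3; log2 fold change 1.59, adjusted p = 9.58e-06 by edgeR) and HMOX1 from 46.9 ± 3.37 to 113 ± 40.1 CPM (1.27, adjusted p = 0.00053). SLC7A11, picked out after its value was seen, went the other way, from 115 ± 5.5 to 34.9 ± 10.8 CPM. A list of 8 genes held NR3C1, the glucocorticoid receptor itself, and targets of that receptor, and 5 of the 8 were tested. Of these 5, 2 rose and 1 fell beside 44.7% of all genes called, with a median of 0.13. NR3C1 was not tested and had 33 counts over all libraries, with 0 to 7 per library. Without cisplatin replicate 1 the NRF2 counts were the same and the call of TSC22D3, picked out likewise, as lower was lost (-0.63, adjusted p = 0.0932 by edgeR). With all libraries TSC22D3 went from 265 ± 44 CPM in untreated cells to 149 ± 65.5 with cisplatin. PER1, a clock gene, rose from 23.6 ± 0.613 to 63.2 ± 20 CPM (1.43, adjusted p = 0.000302), and DUSP1, a phosphatase of stress kinases, from 1.52 ± 0.427 to 7.2 ± 2.42 CPM (2.22, adjusted p = 0.00059). DUSP1 had only 4 to 7 counts per library in untreated cells and 9 to 20 with cisplatin. In the same comparison, MT2A was not called with all libraries. It passed without cisplatin replicate 3 (0.89, adjusted p = 0.0287 by edgeR) or Telmisartan replicate 3 (0.64, adjusted p = 0.0381), and was 0.20 without cisplatin replicate 1 (adjusted p = 0.595). MT1F, at the limit of this depth, stood at -0.04.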

How the data were processed

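RNA of 15 IGROV-CP20 libraries was read by QuantSeq 3′ sequencing with reads of 75 bp. The deposited tables hold counts of reads per Ensembl gene as whole numbers, not normalized. The submitters' processing notes name STAR 2.3.0, HTSeq and hg19. The handling of strand and of reads with several matches is not given in the sources used here. Names and positions came from GENCODE 29 on GRCh38, which matched 45776 of 47634 identifiers.

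Genes were tested in R 4.3.3 with edgeR 4.0.16; DESeq2 1.42.0 and limma 3.58.1 served as alternatives. Summaries used Python 3.11.15, pandas 2.3.3 and matplotlib 3.10.9. The function filterByExpr kept 11113 genes. A quasi-likelihood model with TMM factors and a term per condition was fitted to all 15 libraries, and p was adjusted by Benjamini and Hochberg over all genes within each of 10 comparisons, with a threshold of 0.05. The SE of a log2 fold change was its absolute value divided by the root of F. The procedure was tested on simulated data. Log2 CPM used a prior count of 2. Totals were 1510620 to 3517041, and the counting error of MT2A was 7.54 to 9.76% per library.

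All members were named, with the 2 genes of each further list that had the smallest p for cisplatin against untreated cells, markers used as checks, and the 3 genes most like MT2A, MTF1, SLC30A1 and the summed metallothioneins. Members and lists were chosen with earlier results of these data known. No library pair of a condition differed by so little that it was counted as 1.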

Additional observations from a re-analysis of the deposited data

How the results depend on the processing

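Over 11 processing alternatives, the counts of members called changed as follows. Scaling by library size alone gave 0 calls for cisplatin against untreated cells, 0 for Tranilast against cisplatin, 2 for Amphotericin B against untreated cells and 2 for Tranilast against Amphotericin B. For Tranilast against cisplatin the count was also 0 with a filter that asked for 3 libraries over a CPM of 1, with limma-voom, with only the 6 libraries of the comparison and with the replicate block. The likelihood ratio test gave 1 for Amphotericin B against cisplatin and 2 for Tranilast against Amphotericin B, no filter gave 2 for the latter, and the fit of 6 libraries gave 2 for Amphotericin B against untreated cells. The mitochondrial ribosomal share as a covariate, chosen after seeing the data, gave 0 for Tranilast against cisplatin, for Amphotericin B against untreated cells and for Tranilast against Amphotericin B. Leaving out the genes of the mitochondrial genome, also chosen after seeing the data, changed no count by more than 1.5 times. With each of the 15 libraries left out in turn, the count was 1 to 2 for cisplatin against untreated cells, 0 to 1 for Tranilast against cisplatin, 0 to 2 for Amphotericin B against cisplatin, 0 to 1 for Telmisartan against untreated cells, 1 to 2 for Tranilast against Amphotericin B and 0 to 1 for Tranilast against Telmisartan. A left-out library also lowers the filter, so up to 6 members were tested, and MT1F was under the filter in some fits of 6 libraries. The cause of these changes was not tested.

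The labels do not say whether replicates of the same number were handled together, and correlations between libraries cannot settle it. With the condition means taken out, 3 of 30 same-numbered pairs correlated above 0.1. Of the 15 libraries, 5 correlated best with their own number. Telmisartan and cisplatin correlated at 0.631 for replicate 3 and 0.311 for replicate 1, but at -0.174 for replicate 2. In the fit that took the replicate numbers as a block, the count was 0 for Tranilast against cisplatin (SLC30A1 at -0.98, adjusted p = 0.053 by edgeR). The other counts were as in the fit without it.

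Log2 fold changes that changed sign, none of them past the threshold there, were these. With the covariate, MT2A was -0.0902 for cisplatin, -0.39 for Telmisartan and -0.0401 for Amphotericin B against untreated cells, 0.094 for Tranilast against cisplatin, 0.04 for Tranilast against Amphotericin B and 0.40 for Tranilast against Telmisartan. MTF1 was 0.37 for Telmisartan and 0.17 for Amphotericin B against untreated cells and -0.12 for Tranilast against Telmisartan. SLC30A1 was -0.27 for Amphotericin B against untreated cells, 0.47 for Tranilast against Amphotericin B, 0.16 for Tranilast against Telmisartan and 0.31 for Telmisartan against Amphotericin B. MT1F was 0.18 for cisplatin and 0.38 for Amphotericin B against untreated cells, -0.19 for Tranilast and 0.21 for Amphotericin B against cisplatin and -0.40 for Tranilast against Amphotericin B. With RLE factors and with DESeq2, MT1F was 0.0148 and 0.01415 for cisplatin and 0.000269 and 0.000149 for Amphotericin B against untreated cells, -0.0395 and -0.0389 for Tranilast against cisplatin (-0.00751 by the likelihood ratio test) and -0.0250 and -0.0249 for Tranilast against Amphotericin B. MTF1 for Telmisartan against untreated cells was 0.0103 and 0.0102 with these tools and 0.0481 with 6 libraries. By library size alone, MTF1 was 0.28 for Tranilast against cisplatin, MT1F was 0.0743 for Tranilast against untreated cells and 0.00865 against Telmisartan, and SLC30A1 was 0.22 for Tranilast and 0.2157 for Telmisartan against Amphotericin B and 0.0038 for Tranilast against Telmisartan. With no filter, SLC30A1 was 0.0206 for Telmisartan against Amphotericin B.

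With libraries left out in turn, MT1F ran from -0.68 to 0.25 for cisplatin, -0.14 to 0.058 for Tranilast and -0.50 to 0.19 for Amphotericin B against untreated cells, from -0.27 to 0.66 for Tranilast and -0.45 to 0.55 for Amphotericin B against cisplatin and from -0.21 to 0.47 for Tranilast against Amphotericin B. MT2A ran from -0.38 to 0.33 for Telmisartan against cisplatin and -0.047 to 0.17 for Tranilast against untreated cells. MTF1 ran from -0.14 to 0.044 for Telmisartan against untreated cells and -0.40 to 0.10 for Tranilast against cisplatin. SLC30A1 ran from -0.50 to 0.28 for Telmisartan against Amphotericin B and -0.57 to 0.072 for Tranilast against Telmisartan. Depth limits MT1E, MT1G, MT1M and MT1X, with at most 11 counts per library.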
